A study of Mus musculus with 10 samples.

Results

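Solute carriers are membrane proteins that move nutrients, ions, metals and metabolites across the cell surface and the membranes of lysosomes, Golgi and mitochondria. The genes described here are the expressed members of that superfamily in hippocampal microglia, the resident macrophages of the brain. They were chosen by measured level: the rows of the deposited table whose symbol begins with Slc and a digit and whose level reached 1 TPM (TPM being a transcript level scaled for gene length) in at least 3 of 10 libraries were taken. Of 358 such rows in a table of 19782 genes, 191 reached that level, and 184 remained after 7 transporters of glucose, fructose, lactate and iron were left out by name. The 184 belong to 44 numbered families, and 158 of them were at 1 TPM or more in all 10 libraries.

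Each carrier family handles a chemical class of cargo. Some carriers exchange 1 amino acid for another, some use the sodium gradient that the sodium-potassium pump maintains, and some use the proton gradient of lysosomes. In macrophages they supply choline and amino acids for growth, empty lysosomes of digestion products, and distribute zinc, copper and folate. Mitochondrial carriers of the Slc25 family pass phosphate, nucleotides and amino acids through the inner mitochondrial membrane.

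The microglia were sorted from mouse hippocampus as CD45low CD11b+ cells, and RNA was made into libraries with Smart-Seq chemistry, which amplifies small amounts of RNA. There were 4 libraries from wild-type mice (wild type) and 3 from 5xFAD mice (control), both kept on normal diet. Another 3 libraries came from 5xFAD mice fed PLX3397, a CSF1 receptor inhibitor that depletes microglia, at 290 mg/kg of chow for 1 month from 4 months of age and then normal diet for 1 month while microglia returned (repopulated). The 5xFAD line carries mutant human transgenes under the Thy1 promoter, which is active in neurons, so the transgenes mark the brain around the microglia and not the sorted cells. No depleted and repopulated wild-type group was analysed here, and the labels give neither the ages of the wild-type and control mice nor whether each library is a different animal. The p-values therefore measure the spread between these libraries, which may be technical in part or, in the repopulated group, as a whole.

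The libraries held 18501136 to 23286814 estimated counts. The 10 listed microglia markers were each at 62.3 TPM or more in every library and together at 49687 to 52007 TPM in wild-type, 37683 to 42448 in control and 38685 to 46295 in repopulated libraries, so that wild type lay above both 5xFAD groups. Tmem119 was at 1142 to 1948 TPM in wild-type and 414 to 565 in control libraries, and P2ry12 at 6022 to 7414 and 3242 to 3601 TPM. The part of these shifts in the carrier values was not tested. In such bulk samples fewer cells of a type and less RNA per cell cannot be told apart. Wild-type 3 stood apart from the other wild-type libraries. There 7 astrocyte markers that are not members summed to 129 TPM, of which Aldoc alone gave 112, and to 7.31 to 11.9 TPM in the others. The 6 erythrocyte markers summed to 1355 TPM against 0.05 to 117 TPM. The 10 neuron markers, 5 of them under 1 TPM in every library, summed to 40.7 TPM against 8.55 to 11.2 TPM. In 3 libraries (wild-type 2, control 1 and control 3) Y-linked transcripts were at 5.12 to 16.01 CPM, and in the others at 342 to 484 CPM. Libraries of both kinds occur in the wild-type and in the control group, so neither group came from a single animal. No repopulated library was low in Y-linked transcripts. The split is thus uneven over the groups, and its part in the group differences was not tested. The same 3 libraries were lowest in the neutrophil transcript S100a8, at 74.65 to 121 TPM against 279 to 1346 TPM in the others. Of the neutrophil, monocyte and lymphocyte markers, 9 were in the table and 3 of them under 1 TPM in every library, and they summed to 196 to 1649 TPM in wild-type, 104 to 1837 in control and 397 to 979 in repopulated libraries. Their part in the results that change without those 3 libraries was not tested. Without those 3 libraries the control group is control 2 alone, assumed to vary like the other groups, and values given as resting on control 2 come from that fit. Library values below are scaled CPM, that is CPM after TMM scaling of library sizes, and levels of different genes are compared only as TPM. TPM are not rescaled for composition: between control and wild type the median log2 ratio of all tested genes was -0.38 on TPM and -0.06 in the edgeR fit.

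Of the 184 members, 35 differed between control and wild-type microglia by the quasi-likelihood test of edgeR, with p-values adjusted by Benjamini-Hochberg over all 12505 tested genes (adjusted p under 0.05, "called" below). That is 19% of the members, against 18.1% of all tested genes. There were 13 higher and 22 lower in control microglia, which is 7.07% and 12% of the members, beside 10.1% and 8.04% of all tested genes. The median log2 fold change was -0.15 over the members and -0.06 over all tested genes. All 184 members passed the expression filter of the test. The promoters of some called members are printed next, before their values.

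RefSeq windows on GRCm38.p6 were found for 140 of the 184 members. The 250 bases before the start are given, 5′ to 3′ on the gene's strand, for the member with the smallest p in this comparison (Slc44a1), the member called in both comparisons of control microglia (Slc25a45), the most abundant called member (Slc39a1) and a called member that holds the letters bound by lysosomal regulators (Slc37a3). Capitals mark a match, on either strand, to the CLEAR core TCACGTGA of the lysosomal regulators TFEB and MITF, the ATF4 composite element TGATGNAA, the antioxidant response element TGACNNNGC or the PU.1 core GAGGAAGT. A match may overlap that of another motif.
Slc44a1, chr4:53440163-53440412, plus strand: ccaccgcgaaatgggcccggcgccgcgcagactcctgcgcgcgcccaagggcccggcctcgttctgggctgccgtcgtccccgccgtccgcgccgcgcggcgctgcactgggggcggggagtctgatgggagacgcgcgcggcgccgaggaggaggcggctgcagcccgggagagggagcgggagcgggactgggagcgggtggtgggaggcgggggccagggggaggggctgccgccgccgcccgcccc
Slc25a45, chr19:5877572-5877821, plus strand: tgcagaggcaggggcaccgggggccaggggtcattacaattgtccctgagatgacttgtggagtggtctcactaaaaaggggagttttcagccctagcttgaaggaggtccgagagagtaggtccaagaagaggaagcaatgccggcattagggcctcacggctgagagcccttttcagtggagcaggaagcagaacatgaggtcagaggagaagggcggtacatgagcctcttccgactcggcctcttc
Slc39a1, chr3:90247942-90248191, plus strand: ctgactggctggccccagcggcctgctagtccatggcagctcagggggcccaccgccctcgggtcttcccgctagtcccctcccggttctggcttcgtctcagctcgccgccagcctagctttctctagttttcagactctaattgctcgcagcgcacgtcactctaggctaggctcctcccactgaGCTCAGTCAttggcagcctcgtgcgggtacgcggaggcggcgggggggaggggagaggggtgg
Slc37a3, chr6:39377708-39377957, minus strand: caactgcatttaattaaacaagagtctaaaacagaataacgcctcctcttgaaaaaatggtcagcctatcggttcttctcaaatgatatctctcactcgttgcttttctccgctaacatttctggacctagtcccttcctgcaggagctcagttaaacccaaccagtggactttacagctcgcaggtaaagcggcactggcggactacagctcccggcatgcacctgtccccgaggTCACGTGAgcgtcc

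The antioxidant response element occurred in 3 of 11 windows of members higher in control microglia, 8 of 33 windows of members lower there, 13.9% of the 144 windows of the other members and 10.2% of all 32619 promoter windows. A gene can have several windows, and Slc29a1 alone gave 8. The CLEAR core occurred in 0 of 11 windows of members that rose, 1 of 33 of members that fell and 0.791% of all windows. The composite element occurred in 0 of 11 and 2 of 33, against 3.35% of all windows, and the PU.1 core in 0 of 11 and 1 of 33, against 2.46%. These are matches of letters in a window and were not tested as binding sites.

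Levels spanned a wide range. The median member averaged 11.96 TPM over the 10 libraries, with 9 members at 100 TPM or more, 91 from 10 to 100 and 84 below 10. Slc25a5, the ADP/ATP carrier of the inner mitochondrial membrane, was the most abundant at 2007 TPM and made up 26.4% of the members' summed TPM. The zinc importer gene Slc39a1 followed at 814 TPM, then Slc3a2, the heavy chain shared by several amino acid exchangers, at 376 TPM, and Slc25a3, the mitochondrial phosphate carrier gene, at 235 TPM. The next were Slc7a7 at 148, Slc50a1 at 130, Slc25a36 at 118, Slc35b2 at 108, Slc25a45 at 102 and Slc46a3 at 96.7 TPM. These 10 genes made up 54.3% of the members' summed TPM. Near-identical copies of carrier genes, such as Slc25a4 and Slc25a5 and their pseudogenes, can share reads, so single values in that family are uncertain.

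**Figure D1:**
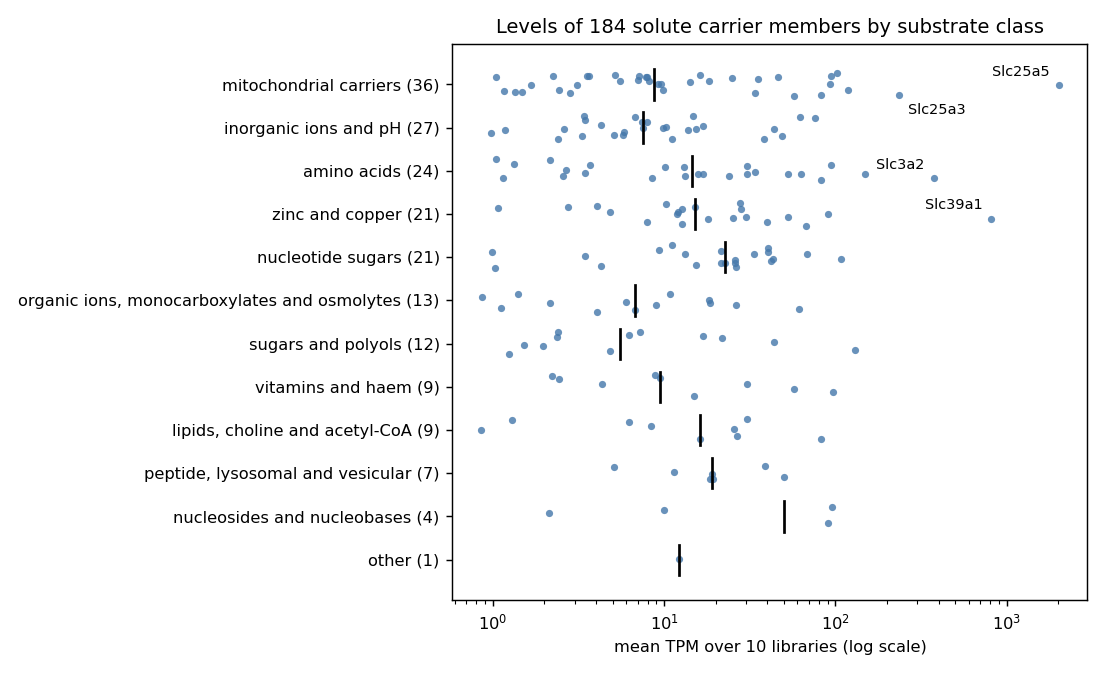
Mean TPM over 10 libraries (log axis) of each of 184 members, by substrate class with the number of members in brackets; each point is a gene and the black bar is the class median. Slc25a5 at 2007 TPM and Slc39a1 at 814 TPM lie far to the right of their classes, whose medians are 8.72 and 15.1 TPM.

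At the edge of the rule, Slc10a1 was the 1 member that reached 1 TPM in exactly 3 libraries, with a mean of 0.855 TPM, and Slc4a3 and Slc1a6 fell just outside with 2 libraries and means of 0.836 and 0.796 TPM. Slc10a1 and Slc12a8 reached 1 TPM in wild-type libraries only, so the rule itself favours a high wild-type level for them. Neither was called in any comparison. Slc39a2 reached it in 2 control and 3 repopulated libraries and in 0 wild-type libraries, and Slc5a10 in 3 wild-type libraries and 1 repopulated library, so the rule favours a rise in 5xFAD for the first and a fall in control for the second. Their differences are given below as a description, although both are counted among the calls. Among members at 1 TPM or more in all 10 libraries, 11 were higher and 20 lower in control than in wild type.

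Among carriers of choline and lipids, Slc44a1 had the smallest adjusted p of all members. It encodes a choline transporter of the plasma membrane and mitochondria (Entrez 100434, chromosome 4, 53440387 to 53622478 in GRCm38.p6), and choline is the precursor of phosphatidylcholine. Its scaled CPM was 38.2, 35.6, 25.3 and 31.1 in wild-type libraries 1 to 4, 106, 112 and 105 in control libraries 1 to 3, and 69.0, 62.1 and 73.0 in repopulated libraries 1 to 3. The 3 groups did not overlap: control libraries were highest and repopulated libraries lay between. Slc44a1 rose 3.31-fold in control over wild type (log2 fold change 1.73, SE 0.15, edgeR adjusted p = 1.55e-06) and 2.09-fold in repopulated over wild type (log2 fold change 1.06, edgeR adjusted p = 0.000362). Against control, repopulated microglia had a log2 value of -0.66 that did not pass (edgeR adjusted p = 0.0681), and the adjusted p passed 0.05 in 6 of 21 alternative fits. Slc44a1 is also expressed by oligodendrocytes. The 7 other oligodendrocyte markers summed to 47.98 to 102 TPM in wild-type, 30.3 to 38.9 in control and 51.2 to 56.7 in repopulated libraries, and 1 of the 7 was under 1 TPM in every library. Their part in the Slc44a1 values was not tested. The other 8 members of this class, which include fatty acid transport proteins, were not called in any comparison.

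Among 21 zinc and copper carriers, 2 were higher and 3 lower in control microglia. Slc39a1, the ZIP1 importer that brings zinc into the cytosol (Entrez 30791, chromosome 3, 90248190 to 90253613), was at 851, 1011, 1033 and 768 scaled CPM in wild type, 1600, 1392 and 1481 in control, and 1014, 893 and 1068 in repopulated libraries. Control libraries stood above all others, and repopulated libraries lay within or just above the wild-type range. It rose 1.63-fold in control over wild type (log2 fold change 0.70, SE 0.14, edgeR adjusted p = 0.00325). Repopulated against control gave -0.59 (edgeR adjusted p = 0.0806) and repopulated against wild type 0.11 (edgeR adjusted p = 0.800), neither of which passed. Slc39a2, the related importer ZIP2, was near absent in wild type, with 0.241, 0.380, 0 and 0.315 scaled CPM, and at 3.10, 2.87 and 1.51 in control and 2.61, 2.19 and 1.94 in repopulated libraries. The fitted ratio to wild type was 10.4 in control and 9.36 in repopulated microglia, from 20 estimated counts over the 4 wild-type libraries, and the rule for members favours such a ratio. Slc39a12, the importer ZIP12, went the other way. Its scaled CPM was 60.5, 89.0, 37.5 and 55.6 in wild type, 26.8, 32.95 and 21.8 in control and 29.8, 23.7 and 34.3 in repopulated libraries, so that both 5xFAD groups lay below every wild-type library. It fell 2.23-fold in control and 2.07-fold in repopulated microglia (edgeR adjusted p = 0.00490 and 0.0235). It was the 1 member called lower in repopulated than in wild-type microglia. Slc31a2, an endosomal copper transporter gene, fell 1.44-fold in control (edgeR adjusted p = 0.0342), while the copper importer gene Slc31a1 was at 123 ± 22.7 (SD, n = 4), 115 ± 12.3 (n = 3) and 115 ± 21.1 (n = 3) scaled CPM in the wild-type, control and repopulated groups. The fifth called gene, Slc39a3, fell 1.74-fold (edgeR adjusted p = 0.0468). Its call ended in 16 of 21 alternative fits, without each library but wild-type 3 among them (0.0615 to 0.155). That of Slc31a2 ended without wild-type 2, 3 or 4, control 1 or 2 or repopulated 1 (0.0523 to 0.169). Resting on control 2, the edgeR adjusted p was 0.0708 for Slc39a1 and 0.251 for Slc39a12, whose log2 fold change was then -0.62. The repopulated call of Slc39a12 ended without wild-type 2 or any 1 repopulated library (0.0555 to 0.157).

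**Figure D2:**
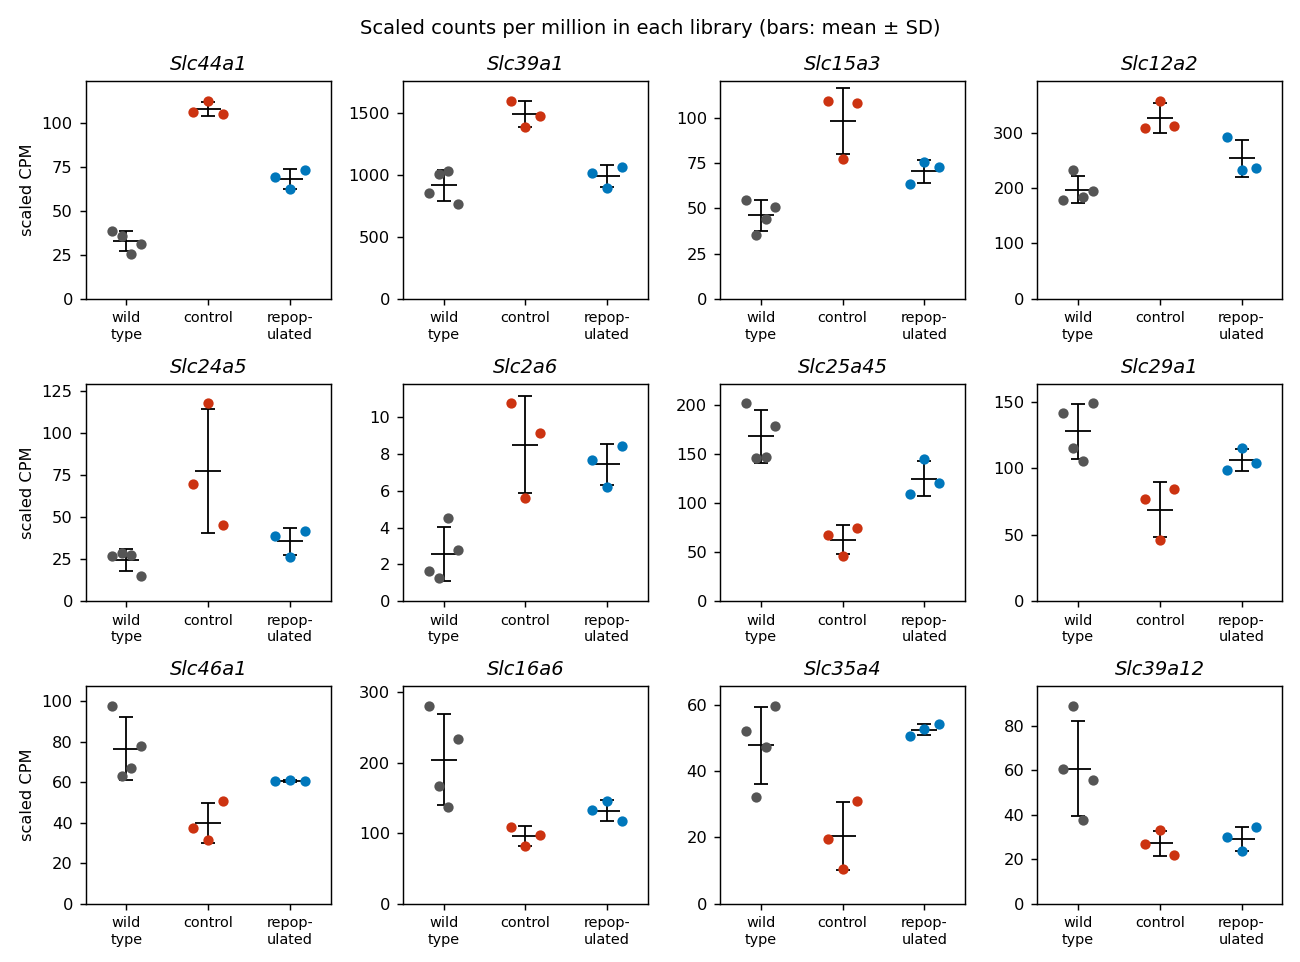
Scaled CPM of 12 called members in each of the 4 wild-type, 3 control and 3 repopulated libraries; points are libraries, the horizontal bar and whiskers are the mean ± SD, and every axis starts at 0. Control libraries lie above all wild-type libraries for the first 6 genes and below them for the last 6. Slc44a1, Slc15a3, Slc12a2, Slc25a45 and Slc46a1 separate all 3 groups, some of them by a narrow gap.

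Carriers of amino acids are often exchangers that share the heavy chain Slc3a2. Of 24 members, 2 were higher and 3 lower in control microglia. Slc36a4, which encodes a transporter of proline and tryptophan, rose 1.78-fold, from 25.9, 23.4, 30.7 and 23.7 to 47.1, 36.4 and 54.5 scaled CPM (edgeR adjusted p = 0.00939), with 30.03, 30.1 and 48.7 in repopulated libraries. Slc1a5, the glutamine transporter ASCT2, rose 2.37-fold to a low level of 6.15 ± 1.35 scaled CPM (SD, n = 3; edgeR adjusted p = 0.0438). Slc36a1, the proton-coupled amino acid exporter of lysosomes, fell 1.55-fold, from 109 ± 16.4 (n = 4) to 70.2 ± 5.54 scaled CPM (n = 3; edgeR adjusted p = 0.0191). The light chains of 2 exchangers fell as well. Slc7a8 (LAT2, for large neutral amino acids) was at 158, 102, 93.3 and 143 scaled CPM in wild type and 79.6, 58.6 and 89.4 in control, 1.63-fold lower (edgeR adjusted p = 0.0212). Slc7a7 (y+LAT1, which exports cationic amino acids) was 1.43-fold lower (edgeR adjusted p = 0.0454). Their groups did not overlap, but for each the lowest wild-type and the highest control library lay close together. Their heavy chain Slc3a2 was at 415 ± 37.1 and 338 ± 52.1 scaled CPM (log2 fold change -0.29, edgeR adjusted p = 0.153), and another light chain, Slc7a5, at 9.13 ± 1.85 and 6.03 ± 1.40 (log2 fold change -0.60, edgeR adjusted p = 0.145), so neither passed. The light chain Slc7a6, named after its values were seen, was at 33.6 ± 3.58 and 35.6 ± 3.30 scaled CPM (log2 fold change 0.08, edgeR adjusted p = 0.720). The glutamate transporter gene Slc1a3, also abundant in astrocytes, was at 206 to 327 scaled CPM in wild type and 196 to 221 in control libraries, with its highest value in wild-type 3 (log2 fold change -0.43, edgeR adjusted p = 0.0526), and it passed in 5 of 21 alternative fits (0.00914 to 0.498 over all of them). The part of astrocyte RNA in that value was not tested. The stress-regulated glutamine carrier gene Slc38a2 did not pass either (log2 fold change 0.34, edgeR adjusted p = 0.0877), but passed in 1 of 21 alternative fits.

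All 5 amino acid calls ended in some alternative fit. The call of Slc36a4 ended without control 3 (0.0502), and resting on control 2 its log2 fold change was 0.45 (edgeR adjusted p = 0.390). The call of Slc36a1 ended without wild-type 4, control 1 or control 3 (0.0525 to 0.0758), and that of Slc7a8 without wild-type 1 or 4 or control 1 or 2 (0.0553 to 0.105). Slc7a7 lost it without any 1 library except wild-type 2 and 3 (0.0541 to 0.192), and Slc1a5 without wild-type 1 or 4, any control library or repopulated 2 or 3 (0.0566 to 0.132).

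**Figure D3:**
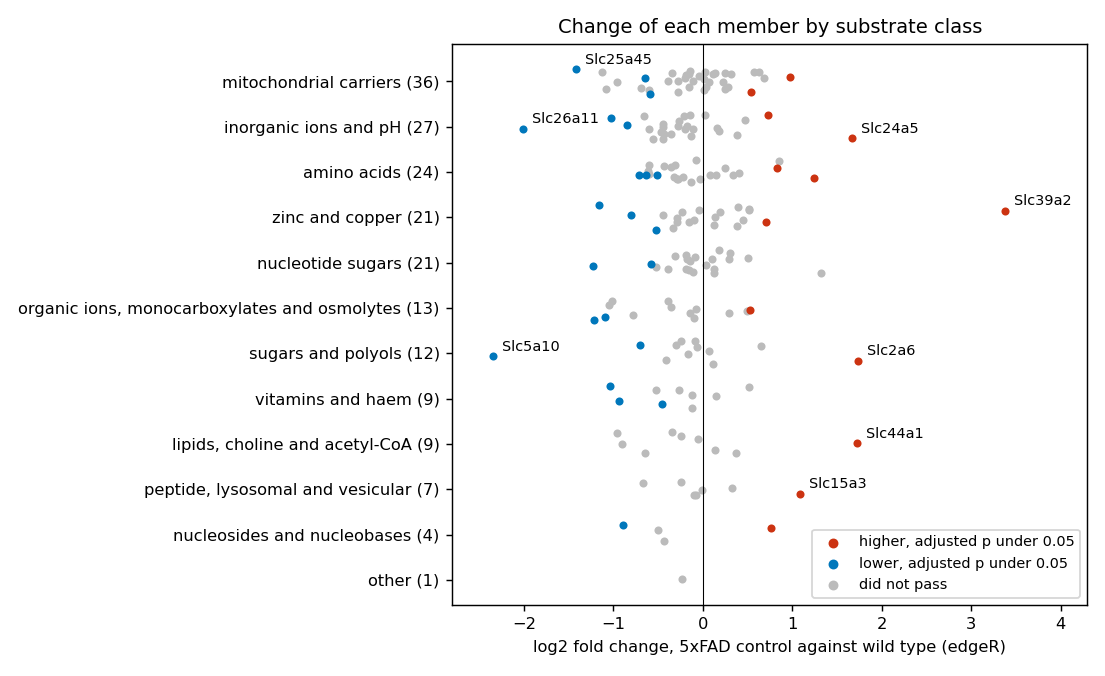
Log2 fold change of control over wild-type microglia from edgeR (x axis) for each of 184 members by substrate class; red points are called higher, blue points called lower, and grey points did not pass. Calls in both directions occur in 7 of the classes, while vitamins and haem (9 members) and nucleotide sugars (21) hold lower calls alone. Of all tested genes 10.1% were higher and 8.04% lower, and the counts of these small classes were not tested against those shares.

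Both folate carriers of the plasma membrane fell. Of 9 members of the vitamin and haem class, 3 were lower and 0 higher in control microglia in edgeR, beside 8.04% and 10.1% of all tested genes. At an unadjusted p under 0.05 there were 4 members, all lower, beside 31.8% of all tested genes in either direction. Both DESeq2 and limma-voom also called 0 higher. Slc46a1, the proton-coupled folate transporter (Entrez 52466, chromosome 11, 78465701 to 78471945), was at 97.8, 62.9, 67.1 and 78.1 scaled CPM in wild type, 37.5, 31.2 and 50.8 in control and 60.4, 61.3 and 60.7 in repopulated libraries. Control libraries were below all others, and repopulated libraries were just below the lowest wild-type library. It fell 1.92-fold in control (log2 fold change -0.94, SE 0.18, edgeR adjusted p = 0.00268). Slc19a1, the reduced folate carrier, was at 13.4, 12.6, 12.5 and 14.2 scaled CPM in wild type, 6.26, 4.23 and 8.82 in control, and 10.1, 13.01 and 16.1 in repopulated libraries, the last spanning the wild-type values. It fell 2.05-fold in control (edgeR adjusted p = 0.0124), and repopulated against control gave a log2 value of 1.02 that did not pass (edgeR adjusted p = 0.0845) but did in 5 of 21 alternative fits (0.0170 to 0.349 over all of them). Slc46a3, a lysosomal relative of the folate transporter, fell 1.37-fold, from 153 ± 13.2 (n = 4) to 112 ± 10.9 scaled CPM (n = 3; edgeR adjusted p = 0.0269). The haem transporter gene Slc48a1 was at 13.8 ± 3.0 and 11.5 ± 3.01 scaled CPM and did not pass (edgeR adjusted p = 0.466). The call of Slc19a1 ended without control 1 or 2 (0.0539 to 0.0571) and that of Slc46a3 without wild-type 4 or control 1 or 2 (0.0758 to 0.110).

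Among nucleoside carriers, Slc29a1 and Slc43a3 moved in opposite directions. Slc29a1 is the equilibrative nucleoside transporter ENT1, through which adenosine crosses the plasma membrane (Entrez 63959, chromosome 17, 45585200 to 45599618). It was at 141, 115, 105 and 149 scaled CPM in wild type, 76.6, 45.8 and 84.3 in control and 98.9, 115 and 104 in repopulated libraries. All control libraries were lowest, and repopulated libraries reached the lower wild-type values. It fell 1.85-fold in control (log2 fold change -0.89, SE 0.19, edgeR adjusted p = 0.00526). Slc43a3, a purine nucleobase transporter gene, rose 1.69-fold, from 10.5 ± 1.40 (n = 4) to 17.8 ± 0.839 scaled CPM (n = 3; edgeR adjusted p = 0.00984), with 15.3 ± 1.69 (n = 3) in repopulated libraries; resting on control 2 its edgeR adjusted p was 0.109. The lysosomal nucleoside transporter gene Slc29a3 was at 245 to 359 scaled CPM in wild type and 217 to 232 in control libraries (log2 fold change -0.44, edgeR adjusted p = 0.0539), and it passed in 6 of 21 alternative fits (0.0197 to 0.252 over all of them).

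Of 7 carriers of peptides and of lysosomal or vesicular cargo, Slc15a3 was the 1 called. It moves histidine and small peptides out of the endolysosome (Entrez 65221, chromosome 19, 10842544 to 10857915). Its scaled CPM was 54.6, 35.1, 43.9 and 50.5 in wild type, 109, 77.2 and 108 in control and 63.1, 75.3 and 72.7 in repopulated libraries. The groups did not overlap, with repopulated libraries between the others. It rose 2.13-fold in control (log2 fold change 1.09, SE 0.17, edgeR adjusted p = 0.000422). Resting on control 2 the log2 fold change was 0.65 (edgeR adjusted p = 0.0744). Slc15a4 of the same family, a scaffold for endosomal Toll-like receptor signalling, was at 64.3 ± 12.5, 54.4 ± 5.41 and 61.7 ± 13.8 scaled CPM (n = 4, 3 and 3), and the sialic acid exporter gene Slc17a5 at 36.3 ± 4.08, 33.99 ± 8.40 and 35.1 ± 1.73. Neither passed in any comparison.

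Of 27 carriers of inorganic ions and protons, 2 were higher and 3 lower in control microglia. Slc12a2, the chloride importer NKCC1 (Entrez 20496), was at 179, 232, 185 and 194 scaled CPM in wild type, 309, 358 and 313 in control and 292, 233 and 236 in repopulated libraries. Control libraries were highest, and the lowest repopulated library lay just above the highest wild-type library. It rose 1.65-fold in control (log2 fold change 0.72, SE 0.13, edgeR adjusted p = 0.00181). Slc12a7, the potassium-chloride exporter KCC4, fell 2.04-fold, from 13.7 ± 2.58 (n = 4) to 6.70 ± 0.870 scaled CPM (n = 3; edgeR adjusted p = 0.00609), and Slc12a9 of the same family fell 1.79-fold (edgeR adjusted p = 0.0101, and 0.0564 without control 2). Slc24a5, a potassium-dependent sodium-calcium exchanger known from pigment cells, was at 26.7, 28.4, 27.7 and 14.9 scaled CPM in wild type, 69.6, 118 and 45.4 in control and 38.8, 26.1 and 41.7 in repopulated libraries. It rose 3.18-fold in control (edgeR adjusted p = 0.00139). Its annotated span shares 7703 bases with Myef2, which went from 71.3 to 174 scaled CPM (log2 fold change 1.28, edgeR adjusted p = 0.00109), and reads of the pair may not have been told apart. Slc26a11, an anion carrier gene named here after its values were seen, fell 4.04-fold from 5.13 to 1.27 scaled CPM (edgeR adjusted p = 0.0141, and 0.0516 without control 2). The endosomal proton exchanger gene Slc9a9 and the sodium-calcium exchanger gene Slc8a1 did not pass in any comparison.

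Of 36 mitochondrial carriers, 2 were higher and 3 lower in control microglia. Slc25a45, a carrier of the inner membrane (Entrez 107375, chromosome 19, 5877801 to 5885768), was at 201, 146, 146 and 178 scaled CPM in wild type, 67.5, 46.4 and 74.2 in control and 109, 144 and 121 in repopulated libraries. The groups did not overlap, and repopulated libraries lay between the others. It fell 2.68-fold in control against wild type (log2 fold change -1.42, SE 0.18, edgeR adjusted p = 8.69e-05). Slc25a3, the phosphate carrier that feeds ATP synthase, rose 1.45-fold, from 162, 157, 167 and 152 to 210, 272 and 211 scaled CPM (edgeR adjusted p = 0.00743), with 201, 191 and 195 in repopulated libraries. Slc25a37, mitoferrin, which imports iron for haem and iron-sulfur clusters, fell 1.5-fold (edgeR adjusted p = 0.0166). Slc25a38, which imports glycine for haem synthesis, fell 1.57-fold (edgeR adjusted p = 0.0178). The ADP/ATP carriers Slc25a5 and Slc25a4 did not pass: Slc25a5 was at 1341 ± 294, 1412 ± 159 and 1306 ± 260 scaled CPM in wild type, control and repopulated and Slc25a4 at 58.2 ± 6.85, 69.2 ± 8.64 and 73.9 ± 5.10 in the same order of groups (n = 4, 3 and 3). The citrate carrier gene Slc25a1 was at 8.85 ± 3.92, 7.30 ± 2.20 and 8.93 ± 1.41. The fifth called gene, Slc25a25, an ATP-magnesium and phosphate carrier named after its values were seen, rose 1.96-fold (edgeR adjusted p = 0.0278). Calls ended without control 1 or 3 for Slc25a37 (0.0545 to 0.0805), without control 2 or 3 for Slc25a38 (0.0605 to 0.0674), and without wild-type 2 or control 1 or 3 for Slc25a25 (0.0668 to 0.112). Resting on control 2, the log2 fold change of Slc25a37 was -0.34 and that of Slc25a25 0.45.

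Sugar carriers changed in both directions. Of 12 members, Slc2a6 was higher and Slc37a3 and Slc5a10 were lower in control microglia. Slc2a6, the lysosomal hexose transporter GLUT6, was at 1.64, 1.28, 4.52 and 2.79 scaled CPM in wild type, 10.7, 5.59 and 9.15 in control and 7.64, 6.22 and 8.40 in repopulated libraries, with every 5xFAD library above every wild-type library. It rose 3.32-fold in control and 2.90-fold in repopulated microglia (edgeR adjusted p = 0.00650 and 0.0349). Resting on control 2 the first was 0.331, with a log2 fold change of 0.92. With wild-type 1, 3 and 4 against the repopulated libraries, in the same fit, the second was 0.152. The repopulated call also ended without any 1 library except wild-type 3 and control 2 (0.0538 to 0.148). Slc37a3, an endoplasmic reticulum member of the sugar phosphate exchangers, fell 1.62-fold (edgeR adjusted p = 0.0251), while its macrophage relative Slc37a2 was at 108 ± 12.9, 114 ± 23.1 and 128 ± 4.80 scaled CPM and did not pass. Slc5a10 was at a low and uneven level of 6.70, 4.56, 0.680 and 3.01 scaled CPM in wild type and at 0.443, 0.756 and 0.990 in control libraries. Wild-type 3 lay inside the control range, and the rule for members favours a low control level. The annotated span of Slc5a10 shares 25893 bases with Fam83g, and reads of the pair may not have been told apart. Fam83g was at 1.12 scaled CPM in wild type and 0.476 in control (log2 fold change -1.23, edgeR adjusted p = 0.452). The call of Slc37a3 ended without wild-type 2 or 4 or any 1 control library (0.0532 to 0.0975).

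Of 13 carriers of organic ions, monocarboxylates and osmolytes, 1 was higher and 2 lower. Slc16a6, a monocarboxylate transporter that exports ketone bodies from liver cells (Entrez 104681, chromosome 11, 109450855 to 109473598), was at 281, 166, 137 and 233 scaled CPM in wild type, 108, 81.2 and 98.1 in control and 133, 146 and 117 in repopulated libraries. Control libraries were lowest, and repopulated libraries overlapped the lower wild-type values. It fell 2.13-fold in control (log2 fold change -1.09, SE 0.21, edgeR adjusted p = 0.00245). Slc13a3, a dicarboxylate importer gene that astrocytes express too, fell 2.33-fold, from 7.91, 8.26, 15.6 and 11.1 to 6.11, 3.02 and 4.67 scaled CPM (edgeR adjusted p = 0.0132, and 0.0640 without control 2). Its highest value was in wild-type 3, and without that library it was still called. Slc16a7, the high-affinity lactate and pyruvate transporter MCT2, rose 1.44-fold (edgeR adjusted p = 0.0226). Its call ended without wild-type 2 or 4 or control 2 or 3 (0.0528 to 0.0806), and on TPM its log2 ratio was -0.05. The taurine importer gene Slc6a6 was at 96.9 ± 12.4, 87.4 ± 1.58 and 102 ± 10.4 scaled CPM and did not pass in any comparison.

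The nucleotide sugar class was made up of 21 members of the Slc35 family, and includes members with other cargo, such as Slc35b2 (below). In edgeR 2 of the 21 were lower and 0 higher in control microglia. Of all tested genes 8.04% were lower and 10.1% higher. DESeq2 and limma-voom also called 0 of these carriers higher. At an unadjusted p under 0.05 there were 1 higher and 3 lower, beside 31.8% of all tested genes in either direction. Slc35a4, a Golgi member of the family (Entrez 67843), was at 52.05, 32.1, 47.4 and 59.8 scaled CPM in wild type, 19.7, 10.6 and 30.9 in control and 50.7, 52.8 and 54.2 in repopulated libraries. Control libraries lay below all others, and repopulated libraries lay inside the wild-type range. It fell 2.34-fold in control (log2 fold change -1.23, SE 0.28, edgeR adjusted p = 0.00817). Repopulated against control gave a log2 value of 1.36 (edgeR adjusted p = 0.0517), which passed in 9 of 21 alternative fits (0.000861 to 0.267 over all of them). Slc35b2, which carries the sulfate donor PAPS into the Golgi, fell 1.49-fold, from 126 ± 14.1 (n = 4) to 84.3 ± 27.7 scaled CPM (n = 3; edgeR adjusted p = 0.0475). Its call ended without any 1 library except wild-type 3 and control 3 (0.0555 to 0.144).

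Repopulated and control microglia differed in 1 member, which was higher, beside 0.352% of all tested genes higher and 0.568% in either direction. Slc25a45 rose 1.99-fold in repopulated microglia, from 62.7 ± 14.5 to 125 ± 18.05 scaled CPM (n = 3 and 3; log2 fold change 0.99, edgeR adjusted p = 0.0339). That call ended without control 1 or 2 or any 1 repopulated library (0.0713 to 0.250). In edgeR 0 members were lower, beside 0.216% of all tested genes. DESeq2 called 4 and limma-voom 1 lower, and 4 and 2 higher, and the shares of all tested genes for those tests are not given here. At an unadjusted p under 0.05 there were 26 members, 18 higher and 8 lower, which is 14.1% of members against 18.5% of all tested genes. The control libraries enter this comparison and the one with wild type, so the values of the called members are shown side by side and no agreement between the comparisons was computed.

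Repopulated and wild-type microglia differed in 4 members, 2.17% beside 4.18% of all tested genes. The 3 higher were Slc44a1, Slc2a6 and Slc39a2 (3.4% of all tested genes were higher), and the 1 lower was Slc39a12 (0.784% lower), with the values given above. All 4 were also called in control against wild type. Both comparisons use the same wild-type libraries, so such an overlap is partly built in, and it was not tested. The median log2 fold change was -0.02 over the members and -0.02 over all tested genes.

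**Figure D4:**
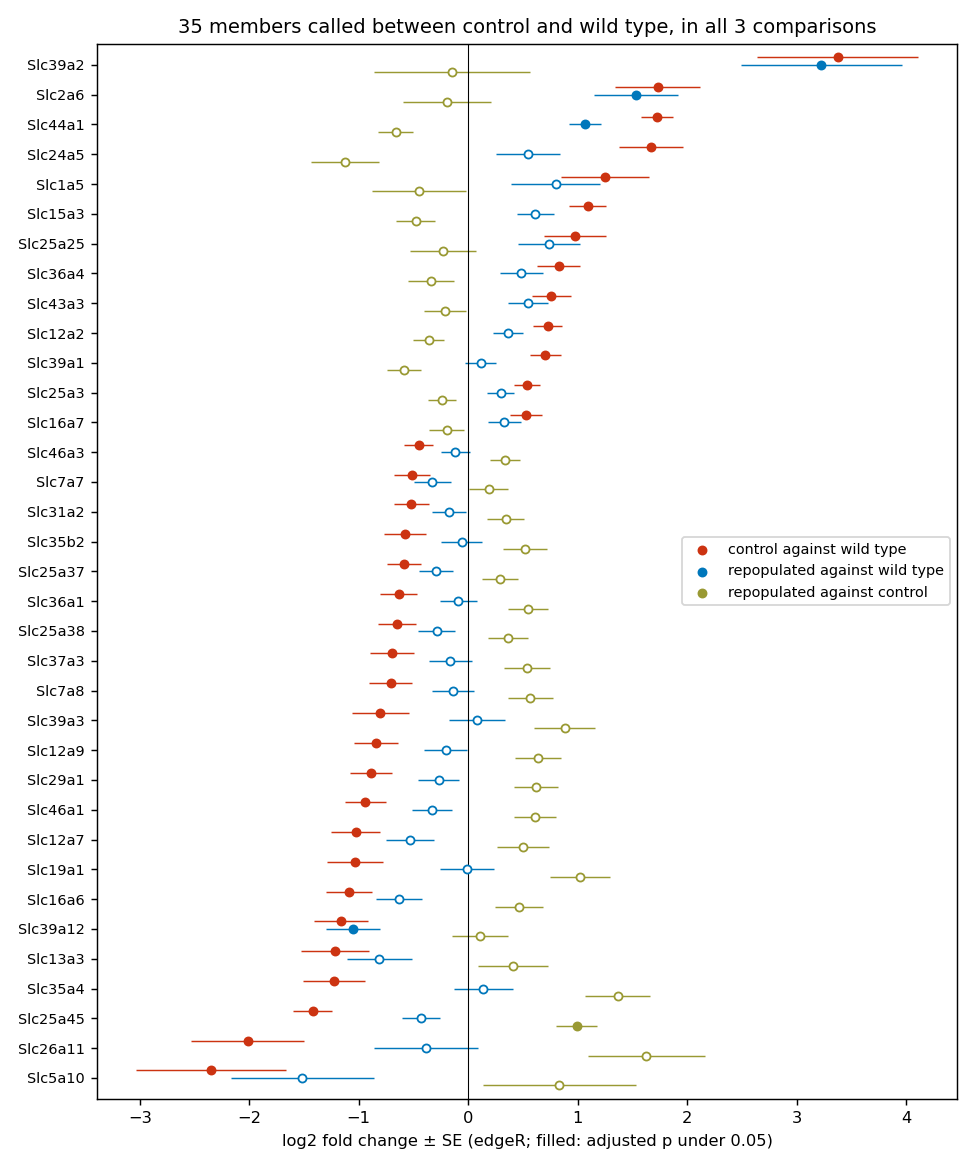
Log2 fold change ± SE from edgeR for the 35 members called between control and wild type, in control against wild type (red), repopulated against wild type (blue) and repopulated against control (olive); filled points have an adjusted p under 0.05. The comparisons share libraries, and filled blue points are limited to Slc39a2, Slc2a6, Slc44a1 and Slc39a12, a filled olive point to Slc25a45.

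Of the 35 calls between control and wild type, 10 held in all 21 alternative fits and 25 ended in at least 1. Those that held were Slc44a1, Slc12a2, Slc24a5 and Slc25a3 among the higher and Slc12a7, Slc16a6, Slc25a45, Slc29a1, Slc35a4 and Slc46a1 among the lower members. Without wild-type 3 there were 15 higher and 24 lower members, without control 1 there were 11 and 11, and without control 2 there were 13 and 9. Resting on control 2 there were 4 and 14, and 19 of the 35 calls ended, with adjusted p-values of 0.0578 to 0.556. No called member changed sign in any alternative fit. The shares of all tested genes called in the alternative fits are not given here, so these counts are not particular to the carriers.

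Genes that work with the carriers were taken from lists chosen with earlier results of these data known. Of all tested genes, 10.1% were higher and 8.04% lower in control microglia. The counts of each list below are to be read beside these shares and were not tested against them. Of 21 tested partner genes that set gradients or escort carriers, 5 were higher and 1 lower in control microglia (median log2 fold change 0.28). Atp1b3, a beta subunit of the sodium-potassium pump, rose 1.96-fold, from 230 ± 10.1 to 452 ± 33.5 scaled CPM (n = 4 and 3; edgeR adjusted p = 3.91e-05). The 1 lower was Ctns, the cystine exporter of lysosomes, at 1.87-fold lower (edgeR adjusted p = 0.00695). Of 18 tested genes of lysosomal nutrient sensing by mTORC1, 4 were higher and 3 lower, among them Rragd and Rragc, which encode Rag GTPases, at 9.996-fold and 1.70-fold higher (edgeR adjusted p = 2.08e-05 and 0.00217). The 3 lower were Rptor, Tfe3 and Sesn1, at 1.49-fold, 1.42-fold and 1.34-fold lower (edgeR adjusted p = 0.0318, 0.0479 and 0.0462), and the list's median log2 fold change was 0.02. Of 14 tested genes of the amino acid response and serine synthesis, 2 were higher and 1 lower. Psat1, a serine synthesis enzyme gene, rose 6.80-fold, from 21.0 ± 6.25 to 143 ± 33.1 scaled CPM (n = 4 and 3; edgeR adjusted p = 6.26e-07), while Phgdh, which encodes the first enzyme of that pathway, fell 1.61-fold (edgeR adjusted p = 0.0413). Of 13 tested genes listed under glutathione and cystine, 1 was higher, the peroxiredoxin gene Prdx1 at 2.03-fold (edgeR adjusted p = 0.000201). The 1 lower was the glutathione synthesis gene Gss, at 1.66-fold lower (edgeR adjusted p = 0.0449). Of 5 zinc handling genes 2 were higher: the metallothionein gene Mt1 at 2.5-fold and Tmem163, which encodes a zinc efflux protein, at 5.28 ± 2.36 scaled CPM in control against 0.144 ± 0.227 in wild-type libraries (n = 3 and 4; edgeR adjusted p = 0.00815 and 0.000344). Of 25 tested transporters of the ABC and SLCO families, 2 were higher and 3 lower, with the peroxisomal Abcd2 1.75-fold higher and Slco4a1 2.44-fold lower (edgeR adjusted p = 0.000669 and 0.00434).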

How the data were processed

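The authors deposited, for each gene and library, estimated counts, FPKM and TPM. The expected or estimated counts are not normalised, per the file headers, and 20.1% of those above 0 were fractional (by more than 0.001). The deposited FPKM and TPM columns correct for transcript length and depth. FPKM were not used. HISAT, Bowtie2 and GRCm38.p6 are listed in the submitters' processing notes. Which quantifier was run, and whether it used strand, is not given in the sources used here, so reads of overlapping genes may not be told apart: 9 of the 35 called members overlap a protein-coding gene.

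After rounding, counts went into edgeR 4.0.16 (R 4.3.3): filterByExpr, TMM, a robust quasi-likelihood fit of 3 groups over 10 libraries, Benjamini-Hochberg adjustment at 0.05, prior count 0.125. This procedure was tested on simulated data with independent libraries. Those data lacked the library differences described above, such as the split in Y-linked transcripts, so that test does not cover them. Each SE was obtained as |log2 fold change| divided by √F. Alternatives used DESeq2 1.42.0, limma 3.58.1, other scalings and filters, each library left out, a replicate block and fewer groups; a correction for GC content and length was chosen after seeing the data. Members, classes and lists were chosen with earlier results of these data known. Named members were the 10 most abundant, up to 4 called per class, those called in repopulated microglia, those at the edge of the rule and a list of carriers known in macrophages. Coordinates and promoters are from RefSeq on GRCm38.p6. Replicates of a group differed beyond sampling noise.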

Additional observations from a re-analysis of the deposited data

Results flagged for a closer look

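Among 57 named members, 1 had a wild-type library far from the other 3, where chance would give about 2.9. Slc24a5 was at 14.87 scaled CPM in wild-type 4 and at 26.7 to 28.4 in the others, a gap of 0.873 of the group's range, past the 95% critical value of Dixon's test for 4 libraries. Without wild-type 4 it was still called in control against wild type.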

How the results depend on the processing

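The count of higher members in control against wild type (13) was 9 to 15 with 1 library left out and 4 with the 3 libraries low in Y-linked transcripts left out. The count of lower members there (22) was 9 to 24 with 1 library left out, 14 without those 3, 14 with a replicate block and 7 at an adjusted p under 0.01. For repopulated against control, the count of higher members (1) was 0 to 4 with 1 library left out, 4 with DESeq2, 2 with limma-voom, 2 with a filter of 5 CPM, 2 with the GC and length correction, 7 with only the 2 groups compared, 5 without the 3 libraries, and 0 and 3 at an adjusted p under 0.01 and 0.1. The count of lower members (0) was 0 to 1, 4 with DESeq2, 1 with limma-voom, 1 without a filter, 1 with the GC and length correction, 2 with only the 2 groups, 2 without the 3 libraries and 2 at 0.1. For repopulated against wild type, higher members (3) were 1 to 5 with 1 library left out, 6 with DESeq2, 5 with the correction, 1 without the 3 libraries, and 1 and 6 at 0.01 and 0.1. Lower members (1) were 0 to 3, 2 with DESeq2, 4 with the correction, and 0 with the replicate block, without the 3 libraries and at 0.01. The cause was not tested, and the counts of all tested genes in these fits, which may move too, are not given here. The replicate block pairs libraries that share only a number (correlations of their deviations were -0.105 to 0.071), and wild-type 4, which has no partner, then adds nothing. DESeq2 and upper-quartile scaling, a prior count of 0.5 and stricter membership moved no count by more than 1.5 times. Of 1383 values of single members under alternatives 0 changed sign. Members near 1 TPM rest on few counts, so changes in them were often not detectable.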

Other observations

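Summed over a class, the carriers took different shares of the TPM in the 3 groups, read against the median log2 ratio of -0.38 that all tested genes showed on that scale between control and wild type. The 24 amino acid carriers summed to 1038 to 1405 TPM in wild-type, 761 to 863 in control and 984 to 1051 in repopulated libraries. The 21 members of the nucleotide sugar class (the Slc35 family) summed to 603 to 751, 439 to 500 and 562 to 596 TPM. The 9 vitamin and haem carriers summed to 228 to 333, 146 to 180 and 220 to 232 TPM, so that control libraries were lowest in each class. That was not particular to these classes. Control libraries were also lowest in the nucleoside, sugar and organic ion classes. All members together summed to 8006.7 to 8924.1, 6502.1 to 7028.4 and 7215.6 to 7520.5 TPM. The members' median log2 ratio on TPM was -0.48 between control and wild type. The 21 zinc and copper carriers, with Slc39a1 as the largest part, summed to 1229 to 1396 TPM in wild-type, 1339 to 1415 in control and 1156 to 1203 in repopulated libraries.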
